A study of Rattus norvegicus with 4 samples.

Results

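Solitary open sites are stretches of accessible chromatin with no other accessible stretch for a long way on either side. They were examined in primary Schwann cells of the rat sciatic nerve, which wrap peripheral axons in myelin, by ATAC-seq, an assay whose transposase inserts adapters where DNA is exposed. Cells were taken 48 h after lentiviral infection, 100000 per library. In the Lenti-AS group (n = 2) the virus overexpressed an antisense RNA of Egr2, the transcription factor that drives the myelination programme. The Lenti-GFP group (n = 2) received a control virus expressing a green fluorescent protein. The cells of all 4 libraries grew with 10% serum, 4 µM forskolin and 5 ng/ml heregulin-β1. The antisense vector carried a red fluorescent protein where the control carried a green one. The paper's methods speak of biological replicates of 100000 cells each. The labels do not say whether the libraries of a group came from separate cultures.

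The deposited data are the 4 lists of open regions that a peak caller made, 1 per library. The 179372 peaks of these lists merged into 58879 regions, of which 31790 held a peak in all 4 lists and are called shared here. A solitary site is a shared region of chromosomes 1 to 20 whose distance to the nearest other merged region, present in any list, was at least 50 kb on both sides. There were 1596 of them, which is 5.02% of the shared regions and 2.71% of all merged regions, and the remaining 30194 shared regions serve as the comparison. The members were chosen by the position and presence of peaks, which are measured values of the same libraries. Their isolation, their presence in all 4 lists and their neighbours are therefore descriptions and not findings.

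Open chromatin is unevenly spread along a chromosome. Most accessible sites lie near promoters and enhancers in gene-rich stretches, while long gene-poor stretches are packed more tightly and hold few. Isolated sites in such stretches are often distal enhancers, sites of the insulator protein CTCF or promoters of isolated genes. Positions are those of the rn6 build used by the study. Genes, gene parts and sequence features of the sites were not analysed here, so that no site is assigned to a gene.

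Each peak carries a fold enrichment, which is the pileup of reads at its summit over a local background estimated by the caller, and a −log10 p for that excess. From these values the summit pileup and the local background were recovered for each peak, in reads. The lowest backgrounds in a list gave its genome-wide background, which was 4.99 reads in Lenti-GFP 1, 1.98 in Lenti-GFP 2, 2.09 in Lenti-AS 1 and 2.80 in Lenti-AS 2. Corrected for fragment size this put the depth of Lenti-GFP 1 at 2.38, Lenti-AS 2 at 1.41 and Lenti-AS 1 at 1.06 times that of Lenti-GFP 2. The lists held 54289, 35646, 43312 and 46125 peaks for Lenti-GFP 1, Lenti-GFP 2, Lenti-AS 1 and Lenti-AS 2. The 99th percentile of summit pileup was 186 reads in the deepest library, 185 in Lenti-AS 1, 183 in Lenti-AS 2 and 135 in Lenti-GFP 2, so pileup at the top did not scale with depth.

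The solitary sites had a high fold enrichment but a modest pileup. Their median fold was 6.34 in Lenti-GFP 1, 7.18 in Lenti-GFP 2, 8.32 in Lenti-AS 1 and 7.76 in Lenti-AS 2. The other shared regions had medians of 4.98, 5.82, 6.84 and 6.15 in the same order. The ratio of solitary to other medians lay between 1.22 and 1.27, and the groups overlapped in it, with a mean of 1.24 ± 0.0303 (SD, n = 2) in Lenti-AS and 1.25 ± 0.0289 (SD, n = 2) in Lenti-GFP. The summit pileup went the other way. A solitary site had a median of 66 reads at its summit in Lenti-GFP 1, 32 in Lenti-GFP 2, 35 in Lenti-AS 1 and 42 in Lenti-AS 2, against 80, 42, 56 and 62 reads at the other shared regions. In all 4 libraries the solitary sites thus had fewer reads at the summit and a larger excess over their surroundings. The 50 kb rule lowers the local background in part by construction, so the larger excess follows in part from the rule.

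**Figure D1:**
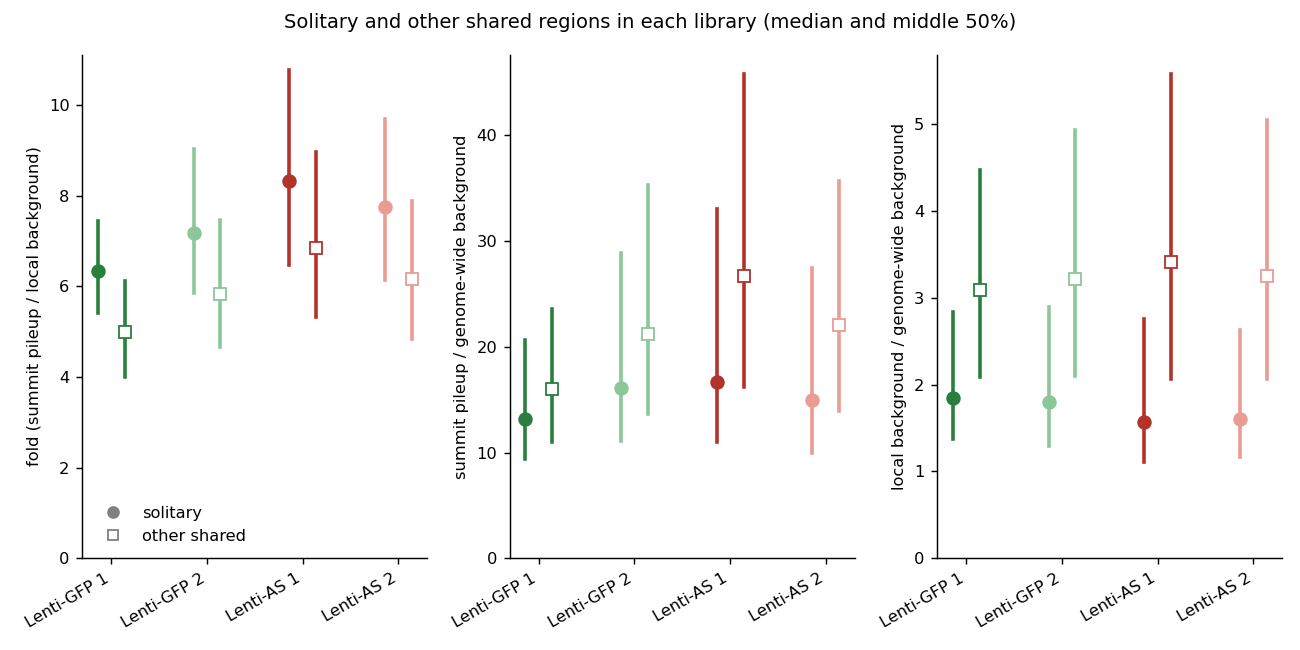
Fold enrichment, summit pileup and local background (the last of these, like pileup, divided by the genome-wide background of the library) on linear axes for the 1596 solitary sites (filled circles) and the 30194 other shared regions (open squares). Points are medians and bars the middle 50% of regions in each of the 4 libraries, and the solitary sites lie above the others in fold and below them in pileup and background in every library.

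The local background separated the solitary sites most clearly from the rest. Relative to the genome-wide background of the library it was 1.84 in Lenti-GFP 1, 1.79 in Lenti-GFP 2, 1.56 in Lenti-AS 1 and 1.61 in Lenti-AS 2 at the median solitary site. At the other shared regions it was 3.08, 3.22, 3.41 and 3.25. The caller estimates this background from reads around a peak, so a rule that keeps other peaks at a distance lowers it by construction in part, and the values only check the description of these sites as lying in sparse chromatin. A background within 1% of the genome-wide level, the lowest the caller allows, was found at 101 solitary sites (6.33%) in Lenti-GFP 1, 133 (8.33%) in Lenti-GFP 2, 307 (19.2%) in Lenti-AS 1 and 228 (14.3%) in Lenti-AS 2. Of the other shared regions 1.59%, 1.59%, 3.42% and 2.42% were at that level. At 68 solitary sites (4.26%) the background was at the lowest level in all 4 libraries, compared with 0.854% of the other shared regions.

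Within each list the median solitary site ranked above most peaks by fold. Its percentile among all peaks of the list was 86.2 in Lenti-GFP 1, 73.4 in Lenti-GFP 2, 76.1 in Lenti-AS 1 and 80.8 in Lenti-AS 2, whereas the other shared regions had 64.9, 52.8, 61.4 and 62.9. The order of the libraries in both sets of values is that of their depth, and the part of depth in the percentiles was not tested. Averaged over the 4 lists the median percentile was 77.4, with the middle 50% of sites between 61.5 and 90.3, against 59.6 (37.6 to 79.3) for the other shared regions. There were 295 solitary sites (18.5%) in the top 10% of all 4 lists, and 7.23% of the other shared regions were there. Conversely, 39 solitary sites (2.44%) and 24.3% of the other shared regions lay below the median of all 4 lists. These percentiles rank fold, so they share in the effect of the 50 kb rule on the background.

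The higher rank held for fold and not for the other measures of strength. When peaks were ranked by −log10 p, the median percentile of the solitary sites was 61.7 and that of the other shared regions 62.4. The median −log10 p of the solitary sites was 33.5 in Lenti-GFP 1 and 20.9 in Lenti-GFP 2, against 29.8 and 19.98 at the other shared regions. In Lenti-AS 1 and Lenti-AS 2 it was 24.7 and 27.5, against 29.1 and 29.0. The solitary sites were thus above the other regions in both Lenti-GFP libraries and below them in both Lenti-AS libraries. Among the shared regions alone, the median solitary site stood at percentile 77.4, 70.5, 67.7 and 72.5 by fold in Lenti-GFP 1, Lenti-GFP 2, Lenti-AS 1 and Lenti-AS 2. By pileup it stood at 37.5, 35.3, 28.0 and 29.8, and by background at 19.9, 19.1, 16.0 and 15.7.

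The solitary sites were about as wide as the others. The merged width had a median of 785 bp, with the middle 50% between 605.75 and 1031.25 bp and a range from 268 to 2185 bp. For the other shared regions the median was 799 bp (604 to 1056 bp), and the widest reached 3520 bp. With the same 1596 sites and the peaks of Lenti-GFP 1 left out of the merged width, the solitary median was 650.5 bp. When all shared regions were divided into 5 equal classes by pileup, the solitary sites were wider than the others of the same class by 23, 71.5, 102, 64 and 31 bp, from the lowest to the highest. When divided by fold, they were wider by 312 bp in the lowest class, which held only 29 solitary sites, and narrower by 63, 93, 160 and 41 bp in the upper 4. The width difference thus had no single direction when strength was held alike.

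Within the lists, the peak at a solitary site had a median width of 762 bp in Lenti-GFP 1 and 510.5 bp in Lenti-GFP 2, close to the 762 and 517 bp of the other shared regions. In Lenti-AS 1 and Lenti-AS 2 it was 525.5 and 576 bp, below the 585 and 617 bp of the others. The ratio of solitary to other median width was 0.916 ± 0.0249 (SD, n = 2) in Lenti-AS and 0.994 ± 0.00889 (SD, n = 2) in Lenti-GFP, and the groups did not overlap. An exact permutation test over 2 against 2 libraries cannot give a two-sided p below 0.333, so library medians are compared by their values and SD without a test.

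A single peak in each list made up 1533 of the solitary sites (96.1%), a share close to the 95.6% of the other shared regions. At these sites the 4 summits spread over a median of 81 bp, against 82 bp for the others. All 4 summits fell within 20 bp of each other at 117 solitary sites (7.63%), and they lay more than 200 bp apart at 14.2%. The corresponding shares of the other shared regions were 8.39% and 15.0%. The summit positions at solitary sites were thus about as repeatable as elsewhere.

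The order of the solitary sites by strength was less repeatable. Spearman's rho of fold between pairs of libraries ran from 0.717 to 0.855 over the solitary sites and from 0.842 to 0.912 over the other shared regions. For pileup it ran from 0.881 to 0.936 and from 0.933 to 0.964. These are correlations across regions of the same libraries, which are not independent replicates. The range of the fold percentile over the 4 lists had a median of 18.7 points at solitary sites and 17.2 at the others.

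The strongest solitary site by mean fold percentile lay on chromosome 14 from 46329423 to 46329872 (rn6), 130 kb and 196 kb from its neighbours. Its fold was 26.0 in Lenti-GFP 1, 27.8 in Lenti-GFP 2, 29.4 in Lenti-AS 1 and 27.9 in Lenti-AS 2. These were the highest folds among the solitary sites in each library. Its summit held 203, 152, 174 and 186 reads over a local background of 1.37 to 2.37 times the genome-wide level, within only 450 bp. The second was on chromosome 1 from 181286490 to 181287095, with folds of 21.01, 22.01, 21.65 and 20.5 in the same order of libraries. It had pileups of 131, 76, 66 and 77 reads over a background close to the genome-wide level. The groups overlapped in fold at the second site but not at the first, where Lenti-AS 2 lay just above Lenti-GFP 2.

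The third strongest, on chromosome 15 from 36020310 to 36021085, lay 861 kb and 531 kb from its neighbours and had folds of 18.6, 19.0, 21.7 and 22.7. The fourth, on chromosome 3 from 14169823 to 14170264, had its background at the genome-wide level in all 4 libraries and pileups of 73, 52, 72 and 73 reads. Its fold of 12.3 in the deepest library was the lowest of the 4, with 17.8 in Lenti-GFP 2, 23.6 in Lenti-AS 1 and 19.5 in Lenti-AS 2. The fifth, on chromosome 20 from 37700367 to 37701512, was a wider region of 1146 bp with folds of 14.0, 16.8, 20.3 and 18.9. In the last 3 of these sites, too, both Lenti-AS folds lay above both Lenti-GFP folds, but fold was also higher in Lenti-AS over all shared regions.

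The weakest solitary sites were broad and had a raised background. The weakest, on chromosome 2 from 145174671 to 145176225, was 1555 bp wide and had folds of 3.34, 3.98, 4.11 and 3.06 in Lenti-GFP 1, Lenti-GFP 2, Lenti-AS 1 and Lenti-AS 2. Its local background was 3.69 to 3.94 times the genome-wide level, so reads were dense around it although the nearest other region was 59.97 kb away. The next, on chromosome 1 from 200695801 to 200697197, had folds between 2.60 and 4.63. The third weakest, on chromosome 3 from 6575321 to 6576346, had 48 to 78 reads at its summit over a background of 4.89 to 7.07 times the genome-wide level.

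The most isolated site was on chromosome 5 from 93365201 to 93365943, with 1326 kb and 2693 kb to its neighbours. Its fold was 4.74 in Lenti-GFP 1, 8.32 in Lenti-GFP 2, 7.07 in Lenti-AS 1 and 6.39 in Lenti-AS 2, and the groups overlapped. A site on chromosome 6 from 89292144 to 89293325 had gaps of 1275 and 1440 kb and folds of only 3.62 to 5.51, and its 4 summits spread over 887 bp. A site on chromosome 3 from 75412545 to 75413253 had gaps of 2457 and 1191 kb and folds of 7.32, 10.6, 11.3 and 11.4. Long isolation thus went with weak and with strong sites.

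The widest solitary site, 2185 bp on chromosome 2 from 241908703 to 241910887, had the highest local backgrounds of the named sites. They were 6.89, 9.30, 11.1 and 8.34 times the genome-wide level, below pileups of 167, 132, 172 and 162 reads. The narrowest, 268 bp on chromosome 13 from 41481262 to 41481529, had 37, 18, 21 and 18 reads over a background at the genome-wide level in all 4 libraries. The other widest sites measured 2107 and 2106 bp and the other narrowest 300 and 307 bp. All 3 of the narrowest had their background at the genome-wide level in every library, whereas the 3 widest had 2.17 to 11.1 times that level.

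The regions nearest the 50 kb limit overlapped across it in mean fold percentile, but not in width. The members nearest above it had smaller gaps of 50.06 to 50.08 kb and mean fold percentiles of 83.7, 93.7 and 56.7. The shared regions nearest below it had smaller gaps of 49.92 to 49.96 kb and mean fold percentiles of 95.9, 80.7 and 66.6. The widths were 1091, 1111 and 1091 bp above the limit and 766, 566 and 689 bp below it. The smaller gap of a solitary site had a median of 73.0 kb, with the middle 50% between 59.1 and 107 kb, and the larger gap had a median of 147 kb. For the other shared regions on the numbered chromosomes the smaller gap had a median of 7.99 kb. There were 444 solitary sites with at least 100 kb and 138 with at least 200 kb on both sides.

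The nearest neighbour of a solitary site was itself a shared region for 743 sites (46.6%). It was present in only 1 list for 448 (28.1%), in 2 lists for 203 and in 3 lists for 202. The neighbouring region was another solitary site for 491 members (30.8%), which formed 224 runs of at least 2 sites, 37 of them with at least 3. The longest run held 5 sites on chromosome 16 between 56592146 and 57506052. Their fold percentiles were high in all 4 libraries, from 82.5 to 88.3 in Lenti-GFP 1, 75.1 to 96.5 in Lenti-GFP 2, 76.8 to 95.8 in Lenti-AS 1 and 83.1 to 98.2 in Lenti-AS 2.

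The share of shared regions that were solitary differed between chromosomes. Chromosome 18 had the highest share, with 68 of 950 shared regions (7.16%), followed by chromosome 15 with 66 of 952 (6.93%). Chromosome 10 had 49 of 2255 (2.17%) and chromosome 12 had 21 of 923 (2.28%). These were the chromosomes with the most shared regions per Mb, 20.1 and 17.6, and chromosome 15 had the fewest, 8.65. Per Mb the number of solitary sites varied less, from 0.400 on chromosome 12 to 0.782 on chromosome 17. The span of a chromosome was taken from the files, and denser peaks leave less room for a 50 kb gap.

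**Figure D2:**
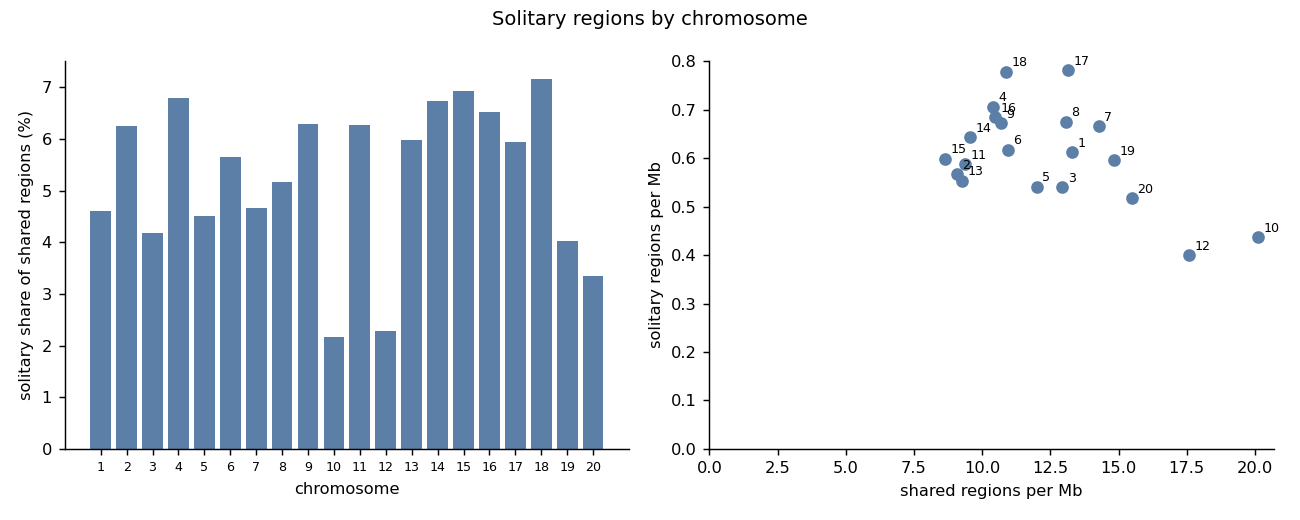
Left, solitary sites as a percent of the shared regions on each of chromosomes 1 to 20 (bars from 0); right, solitary sites per Mb against shared regions per Mb, 1 point per chromosome, labelled by its number. The share runs from 2.17% on chromosome 10 to 7.16% on chromosome 18, and chromosomes 10 and 12 lie at the right with the most shared regions and the fewest solitary sites per Mb.

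The profile of a shared region differed with its isolation. In Lenti-GFP 1 the median fold percentile was 37.8 for the 3297 regions with a neighbour within 1 kb and 75.5 for the 8843 regions with a smaller gap of 10 to 25 kb. It was 85.7 for the 1152 solitary sites with 50 to 100 kb and 89.1 for the 138 with at least 200 kb. In Lenti-AS 1 these values were 40.3, 69.8, 76.8 and 76.8, so the percentile did not rise further beyond 50 kb there. From 50 to 100 kb to the 306 sites with 100 to 200 kb it was lower in 3 of 4 libraries, going from 73.3 to 69.8 in Lenti-GFP 2, from 76.8 to 71.3 in Lenti-AS 1 and from 80.9 to 78.9 in Lenti-AS 2, and in Lenti-GFP 1 it was 85.7 and 86.1. The local background was lower at each of the steps named first, where it was 4.29, 2.59, 1.96 and 1.58 times the genome-wide level in Lenti-GFP 1, and 5.18, 2.75, 1.70 and 1.21 times in Lenti-AS 1.

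**Figure D3:**
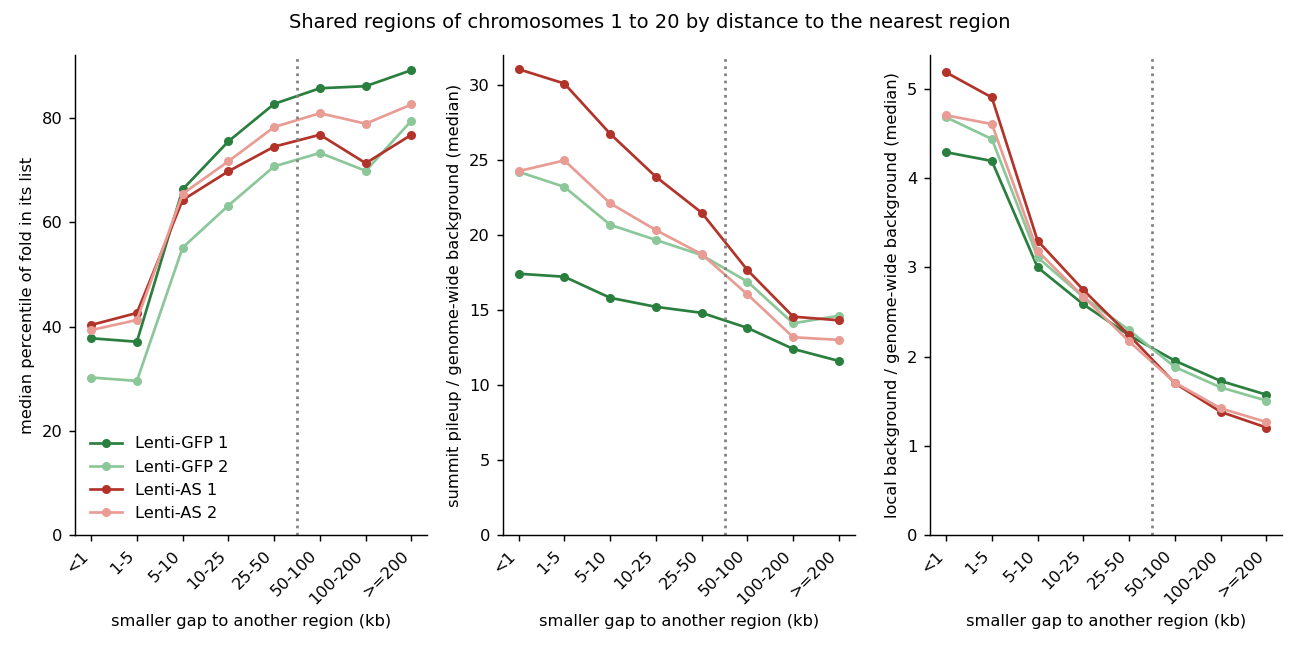
Medians over the shared regions of chromosomes 1 to 20 by the smaller of their gaps to another region (8 classes in kb), for each of the 4 libraries: percentile of fold in its list, summit pileup and local background, the last pair divided by the genome-wide background. The dotted line marks 50 kb, right of which all regions are solitary; background falls from 4.29 to 5.18 times the genome-wide level at the left to 1.21 to 1.58 times at the right, and in background the Lenti-AS lines pass from at or above the Lenti-GFP lines to below them.

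To determine whether the antisense RNA went with a change at the solitary sites, the rank of each shared region within its list was turned into a normal score. The scores of Lenti-AS and Lenti-GFP were compared with limma over all 31790 shared regions. A score of 0 is the median shared region of a library. No shared region passed an adjusted p (Benjamini-Hochberg) of 0.05 by fold, by pileup or by background in either direction (0% of shared regions called higher and 0% called lower). The lowest adjusted p at a solitary site in limma was 0.310 by fold, 0.241 by pileup and 0.0870 by background. The counts below therefore describe directions and call no single site changed. Fits with a block, given under the processing, did call sites. With replicate number as a block, 15 solitary sites were called lower by fold, of 52 of all shared regions.

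Among the shared regions of a library, the pileup of the solitary sites ranked lower in Lenti-AS. The median score was −0.58 in Lenti-AS 1 and −0.53 in Lenti-AS 2, against −0.32 in Lenti-GFP 1 and −0.38 in Lenti-GFP 2, and the groups did not overlap. The median difference per site, Lenti-AS minus Lenti-GFP, was −0.17, with the middle 50% between −0.39 and 0.05. For the other shared regions it was 0.01 (−0.16 to 0.19). Between libraries of the same group the median difference over the solitary sites was −0.03 (Lenti-AS 1 minus Lenti-AS 2) and 0.04 (Lenti-GFP 1 minus Lenti-GFP 2), both smaller than the difference between groups. Pileup ranked higher in Lenti-AS at 466 solitary sites (29.2%) and at 52.3% of the other shared regions.

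Counted by site, both Lenti-AS scores of pileup lay below both Lenti-GFP scores at 635 solitary sites (39.8%), while this was so for 22.4% of all shared regions. Both lay above at 167 (10.5%), against 23.2% of all shared regions. An unadjusted limma p under 0.05 was found with lower pileup rank in Lenti-AS at 276 solitary sites (17.3%; 6.14% of all shared regions). It was found with higher rank at 52 (3.26%; 6.01% of all). Leaving out any 1 library kept the median difference between −0.20 and −0.15.

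Relative to the other shared regions, the median pileup of the solitary sites was 0.625 in Lenti-AS 1 and 0.677 in Lenti-AS 2, against 0.825 in Lenti-GFP 1 and 0.762 in Lenti-GFP 2. The mean ratio was 0.651 ± 0.0371 (SD, n = 2) in Lenti-AS and 0.793 ± 0.0446 (SD, n = 2) in Lenti-GFP. Divided by the genome-wide background instead, the pileup of the solitary sites was not lower in Lenti-AS. It was 16.7 in Lenti-AS 1 and 15.0 in Lenti-AS 2, against 13.2 in Lenti-GFP 1 and 16.1 in Lenti-GFP 2, a mean of 15.8 ± 1.23 against 14.7 ± 2.07 (SD, n = 2 each) with the groups overlapping. At the other shared regions it was 26.7 and 22.1 in Lenti-AS and 16.0 and 21.2 in Lenti-GFP, a mean of 24.4 ± 3.27 against 18.6 ± 3.65 (SD, n = 2 each). On this scale the lower rank and ratio in Lenti-AS went with higher values at the other regions. The relative depths were 1.06 and 1.41 in Lenti-AS and 2.38 and 1 in Lenti-GFP. The part of depth in the ratios and in this scale was not tested.

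The local background of the solitary sites also ranked lower in Lenti-AS. The median score was −0.996 in Lenti-AS 1 and −1.01 in Lenti-AS 2, against −0.85 in Lenti-GFP 1 and −0.87 in Lenti-GFP 2. The median difference per site was −0.12 (middle 50% from −0.31 to 0.07), against 0.01 (−0.14 to 0.15) at the other shared regions. Within groups it was 0.03 and 0.01. In units of the genome-wide background, the median was 1.59 ± 0.0298 (SD, n = 2) in Lenti-AS and 1.82 ± 0.0351 (SD, n = 2) in Lenti-GFP at the solitary sites. At the other shared regions it was 3.33 ± 0.112 and 3.15 ± 0.0951 (SD, n = 2 each), so the groups stood in the opposite order there, without overlap in either set.

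Both Lenti-AS scores of background lay below both Lenti-GFP scores at 692 solitary sites (43.4%; 29% of all shared regions) and above them at 229 (14.3%; 30.7% of all). At an unadjusted limma p under 0.05 the background ranked lower in Lenti-AS at 460 solitary sites (28.8%; 13.1% of all shared regions) and higher at 132 (8.27%; 12.9% of all). Because the background of a peak is estimated from the reads around it, which can include those of the peak itself, pileup and background are not separate observations.

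The rank of fold, the ratio of the above, showed a smaller shift that did not exceed the spread between libraries. The median score of the solitary sites was 0.46 in Lenti-AS 1, 0.60 in Lenti-AS 2, 0.75 in Lenti-GFP 1 and 0.54 in Lenti-GFP 2, and the groups overlapped. The median difference was −0.07, against 0.02 at the other shared regions. Within groups it was −0.07 (Lenti-AS 1 minus Lenti-AS 2) and 0.13 (Lenti-GFP 1 minus Lenti-GFP 2). Without Lenti-GFP 1, the deepest library, the difference was −0.01, as over all shared regions, and without Lenti-AS 1 it was −0.02. Without Lenti-GFP 2 it was −0.15, and without Lenti-AS 2 −0.11. It was −0.12 for sites with gaps of at least 100 kb, and −0.037 for the 2312 sites found when all lists were cut to the length of the shortest. With ranks taken from −log10 p the median difference was −0.21, with 27.9% of the solitary sites higher in Lenti-AS, against 0.01 and 51.5% over all shared regions.

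By fold, both Lenti-AS scores lay below both Lenti-GFP scores at 389 solitary sites (24.4%; 18% of all shared regions) and above them at 245 (15.4%; 20.7% of all). At an unadjusted limma p under 0.05 the fold ranked lower in Lenti-AS at 173 solitary sites (10.8%; 4.8% of all shared regions) and higher at 52 (3.26%; 3.87% of all). Of the 389 sites below by fold, 364 also had a lower mean rank of pileup in Lenti-AS, with a median difference in pileup score of −0.42. Of the 245 above by fold, pileup ranked higher at 119 and lower at 126, and the median difference in background score was −0.19. Among the 389 the median difference in background score was −0.09. Fold is made from pileup and background, so these values describe sets chosen by fold and are no independent observation.

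**Figure D4:**
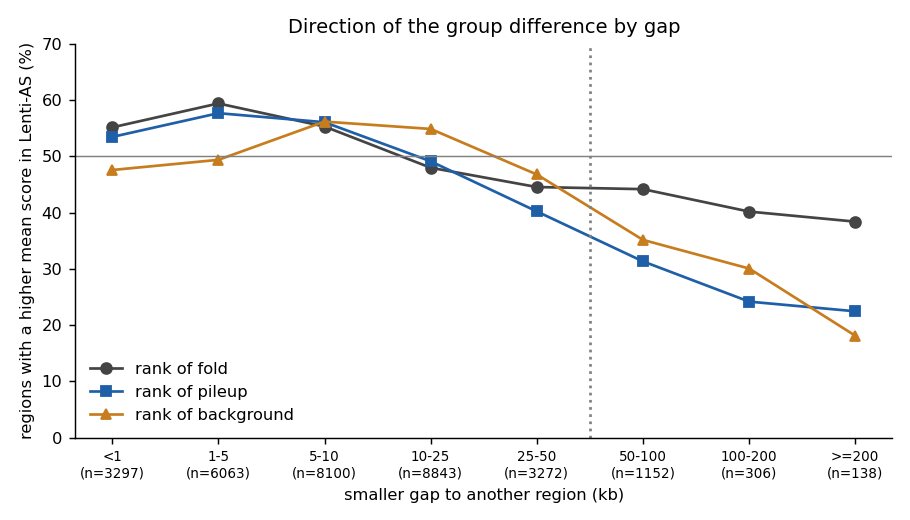
Percent of shared regions of chromosomes 1 to 20 whose mean normal score was higher in Lenti-AS than in Lenti-GFP, by the smaller gap to another region in kb, for the rank of fold, of summit pileup and of local background (n, regions in each class; dotted line, 50 kb; grey line, 50%). Pileup falls from 57.7% at 1 to 5 kb to 22.5% at 200 kb or more, and fold from 59.4% to 38.4%. Background is 47.6% below 1 kb and 49.4% at 1 to 5 kb, and falls from 56.2% at 5 to 10 kb to 18.1%.

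The difference between the groups in rank was larger at longer gaps. Among the solitary sites with a smaller gap of 50 to 100 kb, pileup ranked higher in Lenti-AS at 31.3% of 1152 and the median difference was −0.14. At 100 to 200 kb it ranked higher at 24.2% of 306 (median −0.22), and at 200 kb or more at 22.5% of 138 (median −0.31). For background the shares were 35.2%, 30.1% and 18.1% and the medians −0.10, −0.17 and −0.26. For fold they were 44.2%, 40.2% and 38.4%. In units of the genome-wide background the median pileup at 200 kb or more was 14.3 and 13.0 in Lenti-AS and 11.6 and 14.6 in Lenti-GFP, and the groups overlapped. For regions with a neighbour within 1 kb it was 31.0 and 24.2 in Lenti-AS, against 17.4 and 24.2 in Lenti-GFP, so on this scale the values of the groups lay closer together at the isolated sites. The shift in rank did not begin at 50 kb, because pileup already ranked higher in Lenti-AS at only 40.2% of the 3272 regions with a gap of 25 to 50 kb.

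The lower rank of pileup was spread over the genome. The median difference in pileup score over the solitary sites of a chromosome was negative on 19 of 20 chromosomes, down to −0.26 on chromosome 2, where 16.6% of the sites ranked higher in Lenti-AS. Chromosome 12, with 21 solitary sites, was the exception, at 0.09. The median difference in fold score was negative on 16 of 20. All chromosomes share the same 4 libraries, so they do not repeat the comparison.

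The sites that ranked furthest apart by fold are shown with their values as descriptions, since they were chosen for that difference. The largest positive difference was on chromosome 7 from 128099208 to 128099793, with folds of 4.73 in Lenti-GFP 1, 4.64 in Lenti-GFP 2, 9.88 in Lenti-AS 1 and 7.91 in Lenti-AS 2. Its pileups were 31, 13, 34 and 33 reads, so that the deepest library, a control, had no more reads than those of Lenti-AS. The difference in score was 1.25 ± 0.285 (SE), with an adjusted p of 0.332 in limma. A site on chromosome 1 from 262777286 to 262777735 had folds of 6.61 and 8.98 in Lenti-GFP and 15.5 and 12.1 in Lenti-AS. It lay 562 kb and 355 kb from its neighbours, and its local background was between 1.03 and 1.29 times the genome-wide level in all 4 libraries.

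The other sites higher in Lenti-AS lay on chromosome 17 from 53797387 to 53797889 (folds 3.32, 3.82, 6.65 and 5.66), chromosome 3 from 28899389 to 28899885 (5.49, 3.93, 8.08 and 8.23) and chromosome 1 from 10822289 to 10823041 (7.63, 8.02, 14.5 and 13.0). The folds are given in the order Lenti-GFP 1, Lenti-GFP 2, Lenti-AS 1 and Lenti-AS 2. The adjusted p of these sites in limma ran from 0.332 to 0.499. At the site on chromosome 3 the score of Lenti-GFP 1, 0.27, was close to the 0.39 of Lenti-AS 1, and the difference rested on Lenti-GFP 2 with 12 reads at the summit.

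The largest negative difference was on chromosome 5 from 145486169 to 145487103, where the fold was 6.77 in Lenti-GFP 1, 6.43 in Lenti-GFP 2, 4.11 in Lenti-AS 1 and 4.14 in Lenti-AS 2. The summit held 57, 23, 17 and 20 reads, and the local background stayed between 1.38 and 1.61 times the genome-wide level. The difference in score was −1.90 ± 0.306 (SE), with an adjusted p of 0.310 in limma. On chromosome 10 from 32233998 to 32234534 the fold was 6.66 and 7.12 in Lenti-GFP and 4.201 and 5.24 in Lenti-AS. Lenti-AS 1 had 12 reads there, the lowest number at any solitary site in that library.

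The other sites lower in Lenti-AS lay on chromosome 6 from 51591969 to 51592491 (folds 6.62, 7.91, 6.004 and 3.798), chromosome 11 from 51563290 to 51563848 (9.34, 13.1, 6.46 and 9.99) and chromosome 5 from 14829190 to 14829907 (6.45, 9.48, 6.04 and 4.72). These folds follow the same order of libraries. At the site on chromosome 11 the fold of Lenti-AS 2 exceeded that of Lenti-GFP 1, while its rank was lower, because folds ran lower in the deepest library. The adjusted p of the sites in limma was 0.310 to 0.343. The summits of the 5 sites lower in Lenti-AS held between 12 and 57 reads, and the folds carry that counting error.

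**Figure D5:**
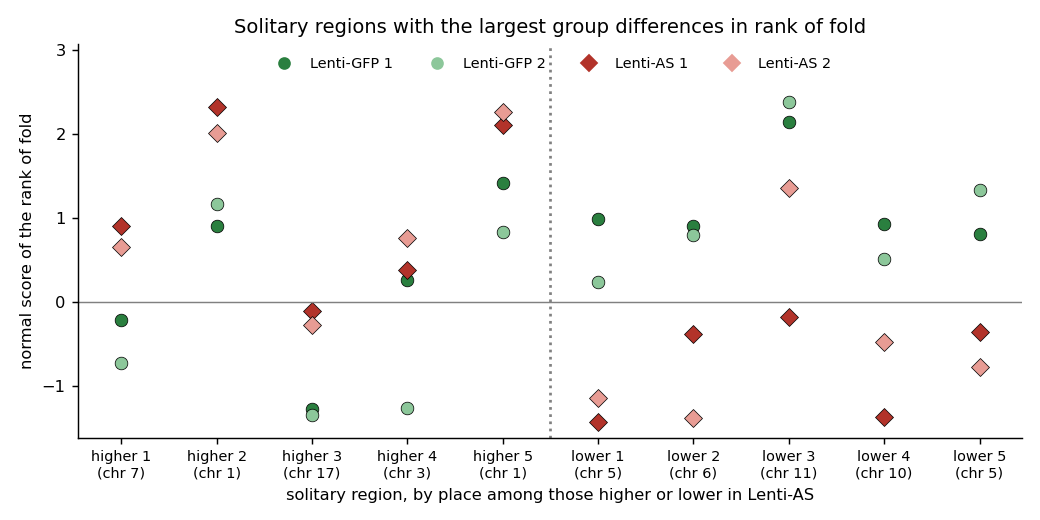
Normal score of the rank of fold among shared regions (0, the median region) in each of the 4 libraries for the 5 solitary sites furthest higher and the 5 furthest lower in Lenti-AS among those whose groups do not overlap. The sites were chosen for this separation; the closest pair of scores between groups is 0.27 and 0.39 at the fourth site higher in Lenti-AS, on chromosome 3.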

How the data were processed

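The authors aligned reads to rn6 with bowtie2, removed duplicates with Picard and called peaks with MACS2 in each library separately; version and options are not given in the sources used here. Each deposited list gives, per peak, a fold (the ratio of summit pileup to local background), −log10 p and −log10 q values, a score, which was not used, and, as another number, the summit offset. The deposited lists hold no read counts.

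Peaks sharing at least 1 bp were merged, and the strongest peak by fold in each list stood for the region. Pileup and background were recovered as the pair whose ratio, each with 1 added, gives the fold and whose Poisson tail gives the −log10 p (within 0.001 for 100% of peaks). Genome-wide background stands for the median over the 100 peaks with the lowest background. Relative depth is this background over the smallest peak width, taken as fragment size. The ranks were compared with limma 3.58.1 in R 4.3.3 without covariates; tables were made with Python 3.11.15, pandas 2.3.3 and scipy 1.17.1, and the scripts were tested on simulated data. Named sites are the 5 strongest, 3 weakest, 3 most isolated, 3 widest, 3 narrowest, the 5 furthest in each direction between the groups without overlap, and 3 on each side of the limit. Alternatives covered the gap limit, the ranking measure, list size, peak threshold, merging, blocks and left-out libraries. Members and lists were chosen with earlier results of these data known. No sample was left out, and intervals over members are quartiles, not errors.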

Additional observations from a re-analysis of the deposited data

How the results depend on the processing

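The number of solitary sites was 4868 with a limit of 25 kb and 444 with 100 kb. It ran from 1711 to 2319 when a library was left out and membership was taken from the other lists, and it was 1638 at a stricter −log10 q of 5, 2312 with lists of equal size, 1736 when peaks within 1 kb were merged and 1607 with chromosome ends counted. The median difference in rank of fold was −0.21 when ranked by −log10 p, −0.037 with lists of equal size and −0.12 at 100 kb, and ran from −0.15 to −0.01 with a library left out. For pileup it was −0.10 at 25 kb and −0.24 at 100 kb, and for background −0.049 and −0.20. With a library left out, it ran from −0.13 to −0.10 for background. The median fold percentile was 61.7 when ranked by −log10 p, and the merged width ran from 650.5 to 781.5 bp with a library left out.

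Same-numbered libraries did not deviate together (r = −0.20 by fold, −0.22 by pileup and −0.30 by background, across regions). With 2 libraries in each group, and depths that ran in opposite order by number, these values cannot show whether the samples were paired. The fit with replicate number as a block called 15 solitary sites lower by fold, of 52 of all shared regions, and 2 lower by background, of 5. A crossed pairing, added after seeing the data, called 5 higher and 60 lower by fold (146 and 364 of all), and 91 higher and 302 lower by background (2012 and 2188 of all). By pileup, neither block called any. Fits that left out a library called 0 to 8 lower by fold, 0 to 52 higher and 0 to 179 lower by background. The calls appeared without Lenti-AS 1 (1, 3 and 36, of 2, 33 and 127 of all shared regions) and without Lenti-AS 2 (8, 52 and 179, of 51, 635 and 973), where a lone library is assumed to vary like the Lenti-GFP pair. Of the 100 values of the 10 sites named for their group difference, none changed direction and 19 became called, which includes 5 sites under the replicate block and 10 under the crossed one. The causes were not tested.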

Other observations

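Most isolated sites were not found in every library. On chromosomes 1 to 20, 3793 merged regions had at least 50 kb to the nearest other region on both sides, and 42.1% of them were in all 4 lists, against 54.8% of the 53972 regions with a nearer neighbour. Of the rest, 1258 were in a single list, and 1135 of these were in Lenti-GFP 1, the deepest library and the longest list. Another 480 were in 2 lists and 459 in 3. The library lacking a peak in the last set was Lenti-GFP 2 for 250, Lenti-AS 1 for 161, Lenti-AS 2 for 43 and Lenti-GFP 1 for 5.

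Sites present in more lists were stronger and wider. The median of the mean fold percentile was 42.2 in 1 list, 48.1 in 2, 51.5 in 3 and 77.4 in all 4. The median merged width was 319, 447.5, 521 and 785 bp, and the median of the mean −log10 p was 9.95, 11.6, 13.0 and 26.1. The merged width is the union over the lists that hold a site. A site is in a list only where its peak passed the caller's threshold, so number of lists and strength are not separate observations. A further 11 shared regions at the end of a chromosome had their only gap at 50 kb or more and were left out.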
